A study of Arabidopsis thaliana with 128 samples.

Results

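The DDM1-silenced transposable elements (TEs) of Arabidopsis seedlings described here are 705 of the 31189 TEs counted in the study. A TE was taken when its mean in control seedlings labelled ddm1 was at least 20 normalized counts, its mean in control wild-type (wt) seedlings was below 1, and its mean in heat-stressed wt seedlings was below 20. Counts are given as normalized counts, meaning reads per feature after scaling of each library for its depth. The set holds 2.26% of all TEs. The TEs were thus chosen by their counts in these seedling libraries, so every seedling contrast is given as a description with no test, and tests are given for the nuclei and inflorescence libraries that the rule did not use.

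The study asked how heat stress and 2 silencing pathways act on gene and TE transcripts in shoot stem cells. All plants were Arabidopsis thaliana Col-0 and carried pCLV3::H2BmCherry, a red nuclear reporter driven by the promoter of the stem cell gene CLV3, and this line alone is called wt. Plants labelled ddm1 carried the ddm1-10 insertion allele and plants labelled poliv the nrpda-3 insertion allele of the PolIV subunit gene NRPD1, each from 1 insertion line. Heat (H) was 1 day at 37 °C in 7-day seedlings, and controls (C) stayed at 21 °C. RNA came from seedling tissue without roots (T7), sorted stem cell nuclei (S7) and, in wt, sorted nonstem nuclei (N7), all taken right at the end of the heat. At 28 days, 21 days after heat, it came from inflorescence meristems (I28) and again from sorted stem cell nuclei (S28). A tissue extraction pooled 10 seedlings or 10 meristems, and a sorted library held 100 nuclei.

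In the S7 groups there were 8 libraries for each genotype and treatment. The T7 groups had 4 libraries each, except for 3 of poliv CT7, and the N7 groups had 6. At 28 days there were 4 libraries per group, except for 3 in ddm1 HI28, ddm1 HS28 and wt CI28. Whether replicate libraries are separate sorts or separate plants is given neither in the labels nor in the methods, and p-values therefore cover only how far these libraries spread. In 125 libraries whose reads could be recovered, totals were between 1853992 and 17611137 reads, with a median of 5117980.

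TEs are kept silent in Arabidopsis by DNA methylation, histone H3 lysine methylation and dense packing into heterochromatin, most of which lies around the centromeres. DDM1 is a chromatin remodeler of the SNF2 family that lets methyltransferases reach packed nucleosomes, and its loss is known to strip methylation from heterochromatic TEs. PolIV is a plant RNA polymerase that starts the production of small interfering RNAs, which direct DNA methylation mainly to short TEs and to the edges of long ones.

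The genotype labels were checked on the mutated genes, whose counts cover the whole gene and cannot tell transcripts that stop at or start from an insertion. DDM1 had 0 to 1.38 normalized counts in the 4 libraries of ddm1 CT7, against 12.6 to 41.8 in wt CT7. It had 2.16 to 9.59 in ddm1 CI28, against 47.6 to 85.7 in wt CI28. In control sorted nuclei the count went against the label, with 121.5 to 401 in ddm1 CS7 against 38.1 to 130.3 in wt CS7, and 52.6 to 87.1 in ddm1 CS28 against 31.1 to 53.9 in wt CS28. In HS7 the ranges overlapped, with 3.41 to 174.5 in ddm1 against 30.4 to 121.0 in wt. In HS28 the count of DDM1 again went against the label, with 102.0 to 178.8 in ddm1 against 18.0 to 35.6 in wt. NRPD1 was not low in poliv CI28, with 17.9 to 32.5 against 6.80 to 11.4 in wt CI28. In poliv HS7 it had 2.18 to 135.4, against 91.1 to 158.2 in wt HS7. Genotypes below are therefore those of the labels, and each direction given for nuclei is a direction between libraries labelled ddm1 or poliv and libraries labelled wt. CLV3 had a median of 16.2 in wt CS7, with a range of 0 to 27.4, and lay between 0 and 1.21 in wt CN7. In ddm1 its median was 2.64 in CS7 (0 to 16.3) and 14.1 in HS7 (3.4 to 33.9). The reporter had a median of 7.24 in ddm1 CS7 (0 to 19.0) against 25.8 in wt CS7 (3.26 to 86.6). The ranges overlapped, and the part of these differences in the comparisons with ddm1 CS7 was not tested. The flower gene AP1 lay between 0 and 1.81 in CS7 libraries of the 3 genotypes and between 195.2 and 339.3 in CS28 libraries, so the S28 libraries held transcripts of this flower gene. Fewer cells of a type and less RNA per cell cannot be told apart in any of these bulk samples.

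The limits of the rule cut through a continuous range of values. On the ddm1 limit, AT4TE13375 (20.1) and AT5TE46475 (20.2) lay just inside, and AT2TE16310 and AT4TE11390 (both 19.97) just outside. On the limit of the wt control, AT4TE20125 and AT3TE22200 (both 0.91) lay inside, and AT2TE22075 (1.03) and AT1TE52200 (1.13) outside. On the limit of heated wt, AT5TE47195 (19.3) and AT1TE45390 (18.5) lay inside, and AT2TE19615 (21.6) and AT4TE20400 (26.2) outside. Of 834 TEs at 20 or more in ddm1 CT7, 725 were below 1 in wt CT7, and 705 of these were also below 20 in wt HT7.

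The 705 TEs were spread over the 5 chromosomes in shares between 1.98% and 2.60% of the TEs counted there, but not along them. TE identifiers are numbered along each chromosome, and the TEs of a chromosome were split into 10 equal bins in this order. The densest run of 3 neighbouring bins held 115 of 150 TEs on chromosome 1 (76.7%), 104 of 142 on chromosome 2 (73.2%), 100 of 152 on chromosome 3 (65.8%), 89 of 129 on chromosome 4 (69.0%) and 108 of 132 on chromosome 5 (81.8%). On chromosome 4 these were bins 3 to 5, and on chromosome 1 bins 4 to 6, the inner part of the TE order. The last bin of each chromosome held 1 to 3. No test was run on this distribution, since TEs of 1 region share their surroundings. Within it most of the set stood alone, since 547 of 705 had no neighbour in TE order that was also in the set, and 158 (22.4%) did. The 3 longest runs had 4 TEs each, and their members differed widely in level. In the run of AT2TE19590, AT2TE19595, AT2TE19600 and AT2TE19610, the means in ddm1 CT7 were 28.3, 145.2, 94.8 and 3607. The other runs were AT3TE55355 to AT3TE55370 and AT3TE61520 to AT3TE61535. Positions in bases, families and sequences of the TEs were not used here, apart from AT5TE40100, which the study lists as an ATLANTYS2 element of the LTR/Gypsy superfamily, a class of retrotransposons that move through an RNA copy.

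**Figure D1:**
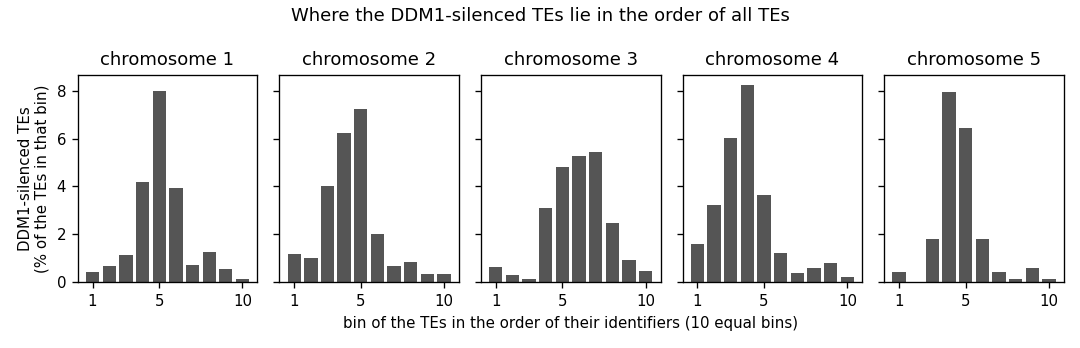
Share of the TEs in each of 10 equal bins of the TE order (x axis, 1 to 10, separately for chromosomes 1 to 5) that belong to the 705 DDM1-silenced TEs (y axis, percent). The highest bars, up to 8.25% on chromosome 4, lie in the inner bins of each chromosome, and the last bins lie between 0.140% and 0.464%.

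The values that chose the TEs spread widely. In ddm1 CT7 the median of the 705 means was 107.2 normalized counts, with quartiles of 37.8 and 520.9 and a highest mean of 16584. The 6 TEs with the highest means carried 16.4% of the summed counts of the set, and the 100 highest carried 75.5%. AT1TE44450 led with 6791, 14068, 20827 and 24650 in the 4 ddm1 CT7 libraries. AT3TE60425 followed with 9351, 18526, 16596 and 20863. These are the 2 highest, and their libraries spread by more than 2-fold. AT4TE15440, AT3TE62685, AT5TE47200 and AT1TE51735 had means between 12034 and 12589. At the low end AT4TE13375 had 16.6, 27.5, 24.3 and 12.1. The whole set took 1.89% to 2.63% of all counts in a ddm1 CT7 library, and its sum in a wt CT7 library was only 14.1 to 27.3 counts.

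Most of these TEs were transcribed in the other materials labelled ddm1 as well. A mean of 20 or more was reached by 651 of the 705 in CS7, 668 in CI28 and 650 in CS28. In wt this held for 9 in CS7, 0 in CI28 and 90 in CS28. The median of the means was 388.3 in ddm1 CS7, 208.1 in ddm1 CI28 and 317.8 in ddm1 CS28. Sorted nuclei gave the set a larger part of the library than tissue did, with 16.6% to 23.1% in ddm1 CS7, 19.7% to 23.7% in ddm1 CS28 and 4.49% to 9.09% in ddm1 CI28. Nuclei and tissue differ in preparation as well as in cells, which cannot be told apart.

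**Figure D2:**
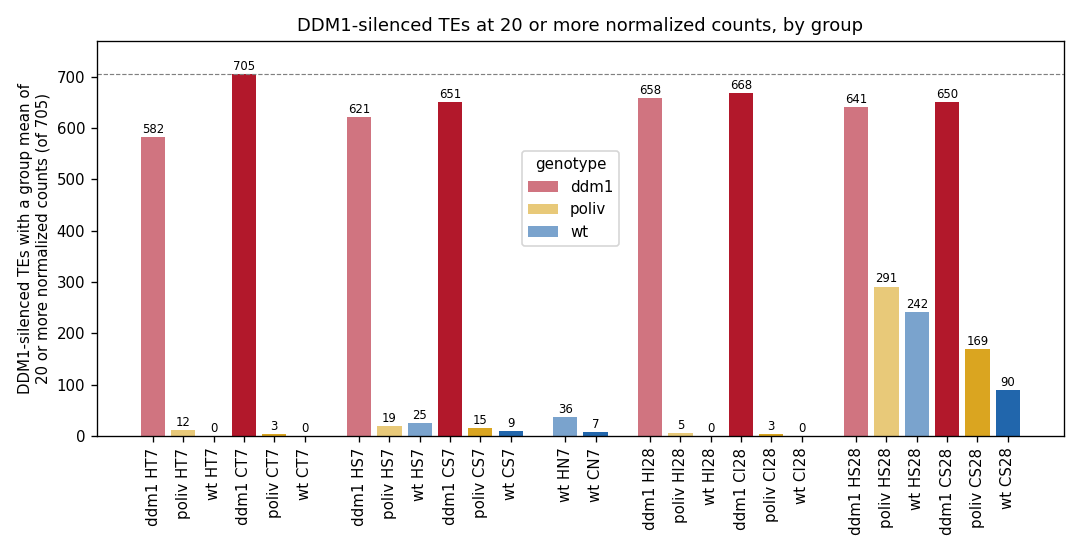
Number of the 705 DDM1-silenced TEs (dashed line) whose group mean is 20 or more normalized counts (y axis) in each genotype, treatment and material (x axis, pale bars heat, dark bars control). Every ddm1 group holds 582 to 705 of them, while in wt and poliv more than 36 are reached only in S28.

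In control stem cell nuclei at 7 days, 660 of the 669 TEs of the set that passed the mean filter of 5 were called higher in ddm1 CS7 than in wt CS7, and 1 was called lower (limma, adjusted p under 0.05 and more than 2-fold). Over all genes and TEs tested, 13.0% were called higher and 4.75% lower, and among the other TEs tested 62.7% were called higher. Of the 669, 595 had a wt CS7 mean below 5 and passed the filter only through the ddm1 libraries, which makes a higher call likely. The share of the set thus cannot be compared with the other shares. The filter was not passed by 36 of the 705. AT1TE44450 had between 62203 and 88349 (median 79057) in ddm1 CS7, against 0 to 2.25 (median 0) in wt CS7. AT1TE44630 had between 35180 and 52263 (median 43702), against 0 in all 8 wt libraries. AT3TE60280 had between 46279 and 69685 (median 56388), against 0 to 4.51. For each of these TEs the 8 ddm1 libraries lay far above the 8 wt libraries, with adjusted p of 1.5e-27 for AT1TE44450, 6.27e-35 for AT1TE44630 and 3.35e-20 for AT3TE60280 by limma. AT1TE38940, with between 23117 and 34584 in ddm1 CS7 and at most 1.05 in wt CS7, was the fourth by fold change.

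The same comparison was made after heat. In ddm1 HS7 against wt HS7, 638 of 652 TEs tested were called higher and 1 lower, where all features gave 13.3% higher and 3.13% lower. Among the other TEs tested 69.9% were called higher. Of the 652, 576 had a wt HS7 mean below 5 and passed the filter through ddm1 HS7, which makes a higher call likely. Here too the share of the set cannot be compared with the others. AT1TE44450 had between 9743 and 12705 (median 11864) in ddm1 HS7, against 0 to 0.48 in wt HS7. AT4TE10350 had between 6139 and 7372 (median 6658), against 0 in all 8 wt libraries, and AT2TE22040 had between 5112 and 6522 (median 5909), also against 0 in all 8. The adjusted p by limma were 1.57e-22 for AT1TE44450, 1.82e-21 for AT4TE10350 and 3.49e-21 for AT2TE22040.

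At 28 days 675 of 689 TEs tested were called higher in ddm1 CI28 than in wt CI28, against 7.76% of all features and 70.1% of the other TEs. None was called lower by limma or edgeR, nor had any a lower value at an unadjusted p under 0.05. All 689 had a wt CI28 mean below 5 and passed the filter through ddm1 CI28. A lower call was thus hardly possible, and these shares cannot be compared. AT4TE17470 had 13539, 17557, 20798 and 15420 in the 4 ddm1 CI28 libraries, against 0 in the 3 wt libraries. AT5TE42420 had 10219, 12851, 18929 and 10410.5, against 0 in the 3 wt libraries. Both were called (limma, adjusted p = 5.14e-13 for AT4TE17470 and 1.02e-12 for AT5TE42420), as were AT1TE51735 and AT5TE47200, of which wt CI28 had no read. In ddm1 CS28 650 of 673 were called higher than in wt CS28, where 9.21% of all features and 38.7% of the other TEs were. Again limma and edgeR called none lower, with 0 at an unadjusted p under 0.05. Of the 673, 290 had a wt CS28 mean below 5 and passed through ddm1 CS28, which makes a higher call likely. The shares in CS28 cannot be compared either. AT4TE08475 had 8781, 9171, 10387 and 9618 in ddm1 CS28, against 0 in the 4 wt libraries (limma, adjusted p = 4.1e-16). AT4TE10350 had between 6010 and 6974 in ddm1 CS28, against 0 to 0.87 in wt CS28.

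A single TE of the set was called in the other direction in 7-day nuclei. AT4TE15950 passed the rule with 29.0, 37.1, 20.6 and 25.6 in ddm1 CT7 and 0 in the 4 wt CT7 libraries. In sorted nuclei it had between 171.6 and 616.4 (median 287.4) in ddm1 CS7 and between 487.3 and 81436 (median 17457) in poliv CS7, against 255.1 to 91287 (median 30910) in wt CS7. It was the 1 TE called lower in ddm1 CS7 (limma, log2 fold change -5.27, adjusted p = 0.0017), although the groups overlapped. In wt CN7 it had between 20971 and 76799 (median 37030). In HS7 it was again the 1 TE called lower in ddm1 by limma (adjusted p = 0.0407), but with no filter and with edgeR 0 were called lower. It had 1 ddm1 HS7 library at 15808, and the others lay between 11.0 and 225.2. Without that library, replicate 7, the number of calls in ddm1 HS7 against wt HS7 was 640. At 28 days AT4TE15950 lay between 0 and 27.6 in wt CS28. A TE outside the set that was picked out after its values were seen, AT1TE48050, was abundant in 7-day nuclei of both genotypes, with between 771.5 and 129709 in ddm1 CS7 and between 177.0 and 97580 in wt CS7. In many 7-day nuclei libraries of wt and poliv AT4TE15950 alone made up most of the summed counts, so sums of the set are given without it. This did not hold in every 7-day library, nor in the 28-day nuclei.

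Most of the set stayed transcribed after heat in libraries labelled ddm1. In seedlings 582 of the 705 kept a mean of 20 or more in ddm1 HT7. Relative to ddm1 CT7, 143 were more than 2-fold higher and 260 more than 2-fold lower, where all features with a mean of 5 gave 25.1% higher and 30.3% lower, and the rule used this control group. The set took 1.42% to 3.48% of a ddm1 HT7 library, against 1.89% to 2.63% of a ddm1 CT7 library, so the shares overlapped. The median log2 difference was -0.41 for the set and -0.12 for all features. The 6 TEs with the highest means in ddm1 CT7 all had lower means after heat, which their choice by this control group favours. AT1TE44450 had 4332, 5280, 3576 and 2667 in ddm1 HT7, AT3TE60425 had 745.0, 772.7, 2063 and 734.6, and AT4TE15440 had 909.7, 729.5, 547.9 and 433.2. Of these only the lowest ddm1 CT7 library of AT1TE44450 came near its heated libraries.

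In stem cell nuclei the heat effect was tested. Of 690 TEs tested, 317 were called lower and 45 higher in ddm1 HS7 than in ddm1 CS7, where all features gave 23.0% lower and 12.1% higher and the other TEs 27.0% lower and 14.5% higher. The median log2 fold change was -0.95 for the set, -0.53 for the other TEs and -0.32 for all features. With the libraries rescaled to equal sums of nuclear genes, the median of all features moved to 0.05 and that of the set to -0.56, with 238 called lower and 81 higher. The set took 11.1% to 14.8% of a ddm1 HS7 library, against 16.6% to 23.1% of a ddm1 CS7 library. Genes of leaf mesophyll moved with the stress as well, since LHCB1.1, a chlorophyll-binding protein of the light-harvesting complex, had 77.8 to 290.6 in ddm1 HS7 against 17073 to 24687 in ddm1 CS7. The stem cell reporter had 25.6 to 166.1 in ddm1 HS7 against 0 to 19.0 in ddm1 CS7, and the part of such shifts in the result was not tested.

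The TEs with the highest seedling levels were among those that fell with heat in stem cell nuclei. AT1TE44450 fell by 2.77 on the log2 scale (values above), AT3TE60425 by 3.96, AT4TE15440 by 2.12, AT3TE62685 by 1.96, AT5TE47200 by 3.04 and AT1TE51735 by 3.47, each with no overlap between 8 and 8 libraries. The largest loss was that of AT5TE22990, with between 17.8 and 91.8 (median 46.2) in ddm1 HS7 against 4921 to 12148 (median 7425) in ddm1 CS7 (limma, log2 fold change -7.47, adjusted p = 9.27e-13). It was low in heated seedlings too, with 13.7, 15.8, 3.33 and 8.15 in ddm1 HT7 against 518.8, 959.1, 704.6 and 1091 in ddm1 CT7. AT1TE46235 had between 0 and 155.3 (median 7.64) in ddm1 HS7 against 1082 to 2875 (median 1505) in ddm1 CS7. AT1TE46795 and AT3TE59455 were the next largest losses, with medians of 20.2 and 7.52 in ddm1 HS7 against 771.3 and 568.5 in ddm1 CS7. At 28 days these 4 TEs were present in ddm1 again or still, with means between 99.9 and 297.3 in ddm1 HS28 against 130.3 to 337.7 in ddm1 CS28.

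The 45 TEs that rose with heat in the same nuclei included TEs that were low or without reads in their controls. AT5TE40100, the ATLANTYS2 element, had between 573.1 and 1104 (median 816.6) in ddm1 HS7 against 52.4 to 187.3 (median 121.6) in ddm1 CS7 (limma, log2 fold change 2.73, adjusted p = 8.08e-12). In ddm1 HT7 it had 1272, 1340, 2023 and 2306, against 48.3, 88.8, 64.3 and 59.2 in ddm1 CT7. Its 8 heated nuclei libraries and 4 heated seedling libraries all lay above every control library of their material. AT5TE37370 had between 134.6 and 375.3 (median 313.7) in ddm1 HS7 against 0 to 47.1 (median 11.4) in ddm1 CS7 (limma, adjusted p = 5.95e-06). AT4TE15025 had between 902.7 and 1661 (median 1237) in ddm1 HS7 against 0 to 229.9 (median 152.3) in ddm1 CS7 (limma, adjusted p = 0.00257). AT4TE15835 stood apart, with between 44.4 and 160.6 (median 88.9) in ddm1 HS7 and no read in any ddm1 CS7, ddm1 CS28 or ddm1 HS28 library (limma, adjusted p = 2.44e-10). In seedlings it was high in both treatments, with 634.9, 689.9, 692.1 and 374.8 in ddm1 HT7 and 444.3, 1067, 665.7 and 702.8 in ddm1 CT7.

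**Figure D3:**
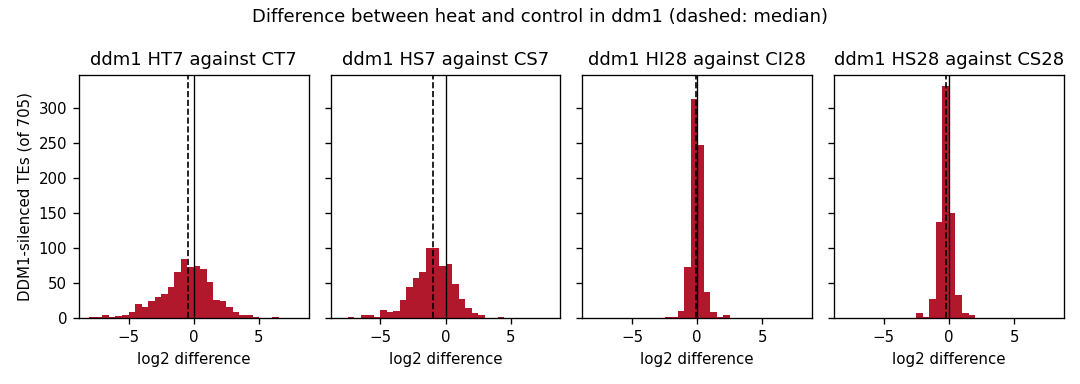
Log2 difference between heat and control libraries labelled ddm1 for each of the 705 TEs (x axis, in bins of width 0.5; y axis, number of TEs), in seedlings, 7-day stem cell nuclei, inflorescences and 28-day stem cell nuclei. The medians (dashed) are -0.41, -0.93, -0.07 and -0.25, and both distributions at 28 days are far narrower than those directly after heat.

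In wt stem cell nuclei few TEs of the set had enough counts for a test of heat. Of the 67 that passed the filter, 20 were called higher and 11 lower in wt HS7 than in wt CS7, where all features gave 12.5% higher and 23.7% lower and the other TEs 16.5% higher and 40.6% lower. With no filter the split turned, with 24 called higher and 43 lower. Of the 67, 32 had a wt CS7 mean below 5 and passed through their heated libraries, which makes a higher call likely. The median log2 fold change was 0.39 for the set and -0.36 for all features. For the same reason neither these medians nor the shares above can be compared between the set and all features. AT5TE41070 had between 11.1 and 243.7 (median 89.4) in wt HS7 against 0 to 10.3 (median 0) in wt CS7 (limma, adjusted p = 8.06e-07). AT5TE42710 had between 10.5 and 137.6 (median 33.9) against 0 to 4.25, AT4TE15030 between 2.64 and 120.1 (median 42.0) against 0 to 1.63, and AT2TE19625 between 7.22 and 105.2 (median 19.1) against 0 in all 8. In nonstem nuclei of wt, which were not tested, AT5TE41070 had between 79.8 and 223.7 in HN7 against 0 to 1.02 in CN7. These levels were small beside those of the mutant, since AT5TE41070 had between 6941 and 11222 in ddm1 HS7 and between 6574 and 9849 in ddm1 CS7. In heated wt seedlings the sum of the set was 534.1 to 586.8 counts per library, against 14.1 to 27.3 in wt CT7, both of which the rule used.

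The TEs that fell with heat in wt nuclei were some of the few transcribed there without stress. AT4TE21090 had between 0 and 1.64 (median 0) in wt HS7 against 49.1 to 109.5 (median 65.9) in wt CS7 (limma, log2 fold change -5.73, adjusted p = 4.44e-09). In wt nonstem nuclei it had between 0 and 1.75 in HN7 and between 36.0 and 69.9 in CN7. In the mutant the groups overlapped, with between 9.66 and 280.4 (median 81.3) in ddm1 HS7 and between 41.4 and 182.5 (median 73.2) in ddm1 CS7. The heat effect of AT4TE21090 differed between ddm1 and wt by 5.51 on the log2 scale (limma, adjusted p = 1.31e-07). AT4TE10335 had between 0 and 2.63 in wt HS7 against 17.2 to 72.6 in wt CS7 (limma, adjusted p = 7.54e-08), and between 166.0 and 470.6 in ddm1 HS7 against 258.8 to 435.1 in ddm1 CS7. AT3TE59100 had between 0 and 0.88 in wt HS7 against 2.83 to 54.1 in wt CS7 (limma, adjusted p = 0.0022). Among the TEs with the highest means in wt CS7, AT1TE42210 had between 11.7 and 166.1 (median 34.1) and AT2TE20735 between 9.47 and 123.9 (median 41.7).

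**Figure D4:**
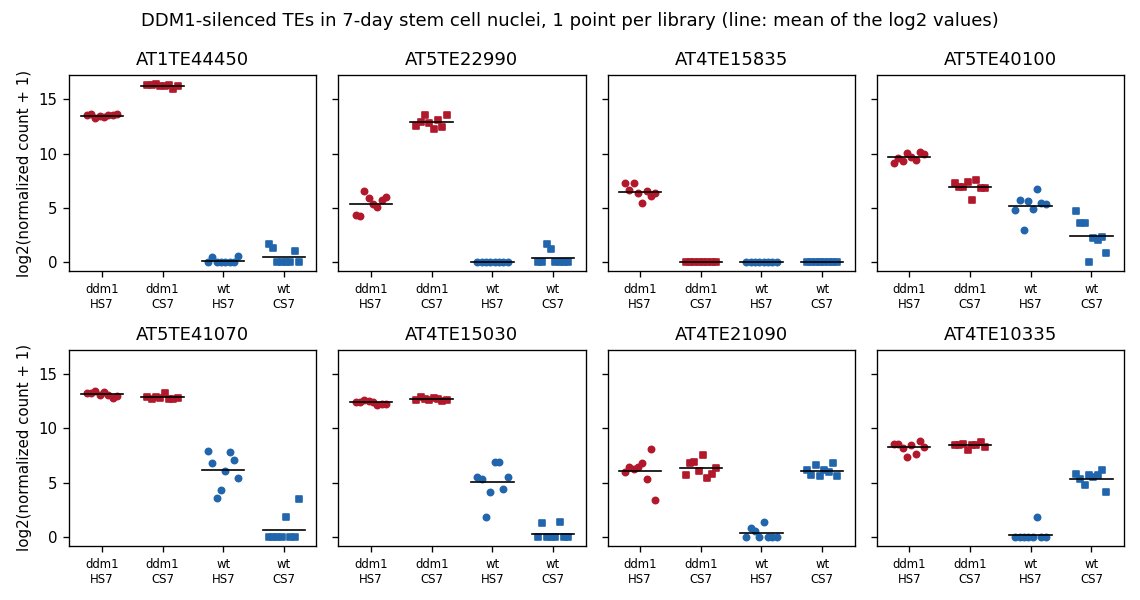
Levels of 8 DDM1-silenced TEs in single libraries of 7-day stem cell nuclei, as log2 of the normalized count plus 1 (y axis), for ddm1 HS7, ddm1 CS7, wt HS7 and wt CS7 (x axis, 8 points each; lines are means of the log2 values). AT5TE41070 and AT4TE15030 are higher in wt HS7 than in wt CS7 while AT4TE21090 and AT4TE10335 are lower, and in ddm1 these 4 TEs stay high in both treatments.

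The heat effects of ddm1 and wt in stem cell nuclei were compared in 1 model. They differed for 192 of 673 TEs tested, with 29 differences above 0 (ddm1 minus wt) and 163 below, where all features gave 3.03% above and 4.06% below. The other TEs gave 8.56% above and 9.82% below, beside 4.31% and 24.2% for the set. The split turned with the model, since edgeR on the recovered reads gave 76 above and 60 below. A pseudocount of 5 gave 42 above and 261 below. In wt, 638 of the 705 TEs were under the filter, so that on the log2 scale with 1 added the difference mostly carried the values of ddm1. AT2TE38910 had the lowest difference (limma, -9.69, adjusted p = 1.84e-08), with between 0 and 51.6 in ddm1 HS7 against 438.1 to 961.3 in ddm1 CS7, and between 0 and 92.0 in wt HS7 against 0 to 1.46 in wt CS7. For AT5TE40100 the heat effects differed by -0.05 (SE 0.66, limma, adjusted p = 0.979), with a median of 42.6 in wt HS7 against 3.92 in wt CS7. AT5TE37360 (5.98) and AT1TE50875 (4.98) were further differences above 0, and both had no read in ddm1 CS7 or wt HS7. AT5TE37360 had a median of 140.4 in ddm1 HS7, with 1 of 8 libraries at 0, and no read in wt CS7. AT1TE50875 had a median of 107.0 in ddm1 HS7, with 3 of 8 libraries at 0, and 0 to 2.93 in wt CS7. AT5TE47200 (-7.52), AT5TE22990 (-7.10) and AT1TE46765 (-7.05) were further differences below 0.

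At 28 days, 21 days after heat, few TEs of the set differed between heat and control libraries labelled ddm1. In ddm1 HI28 against ddm1 CI28, 2 of 694 TEs were called higher and 1 lower, where all features gave 0.704% higher and 0.0582% lower. AT3TE21700 had 351.6, 207.7 and 217.1 in ddm1 HI28 against 91.0, 61.5, 74.3 and 99.6 in ddm1 CI28 (limma, log2 fold change 1.64, adjusted p = 0.00637). AT1TE51910 had 91.8, 83.3 and 97.1 against 34.9, 51.8, 32.4 and 16.6 (limma, log2 fold change 1.50, adjusted p = 0.0472). AT5TE40100, which rose directly after heat, was the 1 TE called lower by limma, with 18.6, 28.1 and 23.7 in ddm1 HI28 against 103.7, 106.7, 49.2 and 48.7 in ddm1 CI28 (limma, log2 fold change -1.59, adjusted p = 0.0365). This lower call was lost after rescaling to equal sums of nuclear genes, with edgeR (fitted without ddm1 HI28 replicate 2), and without ddm1 HI28 replicate 1 or 2 or ddm1 CI28 replicate 1 or 2. The count of 3 was 0 without ddm1 HI28 replicate 1, 1 without replicate 2 and 7 without ddm1 CI28 replicate 4.

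In ddm1 HS28 against ddm1 CS28, none of 681 TEs was called higher by limma and 1 was called lower, where 0.0604% of all features were lower. At an unadjusted p under 0.05, 22 were higher and 120 lower, and edgeR called none. AT1TE45390 had 138.6, 171.5 and 95.3 in ddm1 HS28 against 266.5, 330.6, 331.5 and 326.8 in ddm1 CS28 (limma, log2 fold change -1.25, adjusted p = 0.0457). Replicate 1 of ddm1 HS28 stood apart with a sum of the set of 1013183, against 620369 and 588240 in the other 2 libraries. Without it 4 TEs were called higher and 67 lower. Without ddm1 HS28 replicate 3, or without any 1 of the 4 ddm1 CS28 libraries, none was called, and without ddm1 HS28 replicate 2 there were 2.

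Outside ddm1 the sums of the set were lower in every library, and they differed between materials. Without AT4TE15950 the sum of the set was 247959 to 1467842 in the libraries labelled ddm1. In wt it was 242.7 to 1649 in HI28 against 58.2 to 88.0 in CI28, and 1048 to 2825 in HS7 against 907.2 to 3262 in CS7. Replicate 1 of wt CS7 held the highest sum and 49 TEs at 20 or more, against 4 to 14 in the other 7 libraries. Without it the calls in ddm1 CS7 against wt CS7 numbered 661, as with it. In the 28-day nuclei of wt the sum reached 3128 to 25150 in HS28 and 2698 to 13919 in CS28. The leading TEs there were AT3TE57780 with a mean of 131.0 and AT1TE54480 with 35.6, 34.1, 221.4 and 94.2 in wt CS28. These libraries also held reads on more of the other TEs, between 5580 and 11849 in wt CS28 against 373 to 550 in wt CT7, and the library with the most, replicate 3, also had the highest sum of the set. In wt HI28, replicate 4 had both the highest sum (1649) and the most other TEs with a read (4508, against 1407 to 2012 in the other 3). The part of this wide spread of reads in the levels of the set was not tested. Without replicates 3 and 4 of wt CS28, 659 TEs were called higher in ddm1 CS28 than in wt CS28.

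**Figure D5:**
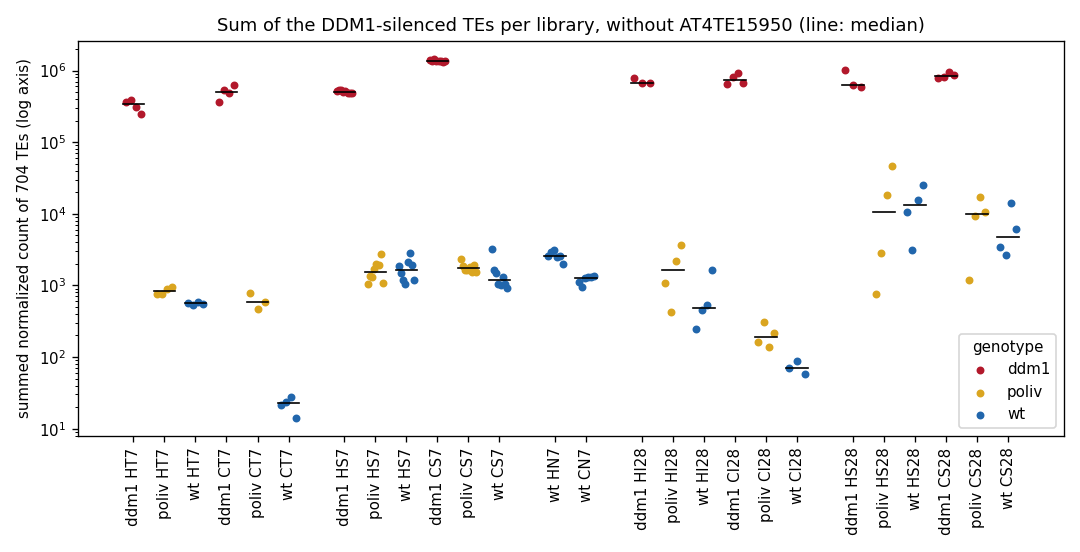
Summed normalized counts of the DDM1-silenced TEs without AT4TE15950 in every library (y axis, log scale; 1 point per library, line at the group median) by genotype, treatment and material (x axis). The ddm1 libraries lie between 247959 and 1467842, wt CT7 lies at 14.1 to 27.3, and the S28 libraries of wt and poliv spread between 758.2 and 46281.

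In libraries labelled poliv most of the set stayed low outside the 28-day nuclei. In those nuclei 291 of the 705 had a mean of 20 or more in poliv HS28 and 169 in poliv CS28, against 242 in wt HS28 and 90 in wt CS28. These means rest on a few libraries. In single libraries 8 to 471 TEs were at 20 or more in poliv HS28, against 36 to 369 in wt HS28. In CS28 these were 8 to 303 in poliv against 26 to 246 in wt, so the genotypes overlapped. Reads on other TEs spread as well, from 2515 to 15471 of them in poliv HS28. A mean of 20 or more was reached by 3 TEs in poliv CT7, which are the same 3 as in poliv CI28. AT4TE09845 had 575.9, 368.8 and 398.5 in poliv CT7, AT4TE04415 had 65.4, 39.4 and 48.2, and AT1TE93275 had 66.9, 30.0 and 53.9, each against 0 in the 4 wt CT7 libraries. For AT1TE93275 and AT4TE04415 the poliv means of 50.3 and 51.0 stood beside means of 30.0 and 26.5 in ddm1 CT7. After heat AT4TE09845 had 0 to 2.97 in poliv HT7, and in ddm1 it had 31.6, 30.2, 7.76 and 5.43 in HT7 against 1805, 3571, 1652 and 1547 in CT7. In poliv HT7 12 TEs had a mean of 20 or more, led by AT2TE08135 with 61.5 and AT1TE45390 with 42.4.

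In poliv CS7 9 of 75 TEs tested were called higher than in wt CS7 and 1 lower, where all features gave 0.658% higher and 0.324% lower. The other TEs gave 7.05% higher and 1.57% lower, beside 12% and 1.33% for the set. Of the 75, 15 had a wt CS7 mean below 5 and passed the filter through poliv CS7. AT4TE15255 had between 13.9 and 113.5 (median 38.7) in poliv CS7 against 0 in all 8 wt libraries (limma, adjusted p = 9.61e-08). AT2TE02465 had between 50.2 and 105.6 (median 91.5) against 0 to 9.01 in wt CS7 (limma, adjusted p = 2.46e-08). AT4TE20125 had between 31.6 and 166.3 (median 58.3) against 0 to 26.1, and AT3TE70590 between 24.4 and 65.6 (median 38.7) against 0 to 5.86, neither with an overlap. These levels were below those of the same TEs in ddm1 CS7, which had medians of 7843 for AT4TE15255, 1425 for AT2TE02465, 1913 for AT4TE20125 and 972.1 for AT3TE70590. AT4TE20120, whose identifier is next to that of AT4TE20125, had a median of 108.2 in poliv CS7 and 120.4 in ddm1 CS7. The TE called lower was AT4TE21090, with between 0 and 48.6 (median 3.88) in poliv CS7 against 49.1 to 109.5 in wt CS7 (limma, log2 fold change -3.53, adjusted p = 5.95e-05). Since the comparisons of ddm1 and poliv share the wt libraries, their values are only set side by side.

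The same genotypes were compared in heated nuclei and at 28 days. In poliv HS7 1 of 74 TEs (1.35%) was called higher than in wt HS7, against 0.201% of all features and 3.94% of the other TEs. This was AT1TE93275, with between 26.2 and 154.0 (median 68.8) in poliv HS7 against 0 to 16.4 in wt HS7 (limma, adjusted p = 0.00165). With a wt HS7 mean below 5, 16 of the 74 passed the filter through poliv HS7. In poliv CI28 2 of 3 TEs tested were called higher than in wt CI28, where 0.113% of all features were. All 3 had a wt CI28 mean below 5 and passed the filter through poliv CI28, so these shares cannot be compared. They were AT4TE09845, with 38.6, 71.7, 52.2 and 65.2, and AT1TE93275, with 69.5, 54.5, 26.9 and 51.3, each against 0 in the 3 wt libraries (limma, adjusted p = 7.44e-06 for AT4TE09845 and 2.55e-05 for AT1TE93275). In poliv CS28 5 of 429 were called higher than in wt CS28, where 0.122% of all features and 0.477% of the other TEs were. With a wt CS28 mean below 5, 58 of the 429 passed the filter through poliv CS28, which makes a higher call likely for these. AT4TE20125 had 35.6, 27.6, 38.3 and 65.7 against 0, 0, 3.94 and 2.06 in wt CS28 (limma, adjusted p = 0.00558). AT4TE04415 had 112.4, 113.3, 134.5 and 96.6 against 26.1, 18.5, 29.5 and 22.7 (limma, log2 fold change 2.20, adjusted p = 1.54e-04), and was named after its values were seen. The other 3 were AT4TE09845, AT1TE93275 and AT4TE20120. The count was 2 without poliv CS28 replicate 2 or 4, and 3 without poliv CS28 replicate 1 or 3 or wt CS28 replicate 4.

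At 21 days after heat, 6 of 34 TEs tested were called higher in poliv HI28 than in poliv CI28, where 0.881% of all features were. Of the 34, 31 had a poliv CI28 mean below 5 and passed the filter through their heated libraries, so these shares cannot be compared. AT5TE42855 had 5.83, 6.56, 62.2 and 70.9 in poliv HI28 against 0 in the 4 poliv CI28 libraries (limma, adjusted p = 0.0112). AT2TE22520 had 5.83, 8.20, 24.3 and 47.5, and AT1TE54480 had 10.5, 4.10, 24.3 and 29.1, each against 0 in the 4 controls. AT1TE46765 had 8.16, 6.56, 17.6 and 20.6 in poliv HI28 against 0, 1.91, 0 and 0 in poliv CI28. Replicates 3 and 4 of poliv HI28 were the highest for all 4 TEs, and they held reads on 4931 and 6089 of the other TEs, against 2837 and 1622 in replicates 1 and 2. The part of these libraries was not tested apart from leaving them out. Without replicate 3, or without replicate 4, no TE was called, without replicate 2 there were 22, and without poliv CI28 replicate 1 there were 3. In wt AT5TE42855 had 3.54, 4.89, 13.1 and 18.5 in HI28 against 0, 1.14 and 0 in CI28.

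Most of the set was found in every ddm1 library, and a few TEs came and went between libraries. A read was present in all 8 libraries of ddm1 CS7 for 640 of the 705 and in all 4 of ddm1 CI28 for 679. The median coefficient of variation of a TE was 0.338 in ddm1 HS7 and 0.227 in ddm1 CS7. On the other side, 43 TEs in ddm1 HS7, 26 in ddm1 CS7 and 17 in ddm1 CT7 were below 1 in a library and above 50 in another of the same group. AT1TE50875 had 73.1, 93.7, 84.9 and 102.3 in ddm1 CT7 but no read in ddm1 CS7, CI28, HI28, CS28 or HS28. AT4TE34010 passed the rule through 1 library, with 0, 0, 103.1 and 0 in ddm1 CT7. It had no read in ddm1 HT7, CS7, CI28, HI28, CS28 or HS28. In wt its means were 6.23 in CI28 and 10.99 in HI28, the highest of the set there. For this TE the inflorescence values thus go against the name of the set. AT1TE47135 and AT1TE47355, a pair picked out after its values were seen, often had reads in turn. In ddm1 CT7 AT1TE47135 had 0, 56.5, 0 and 45.8 where AT1TE47355 had 70.4, 0, 31.5 and 0. Only 1 of the pair had reads in 28 of 38 ddm1 libraries, including all 8 of ddm1 CS7 and all 8 of ddm1 HS7. In 1 library of ddm1 HI28 both had 172.9 and in 1 of ddm1 HT7 both had 75.95. Counts of such single copies are uncertain, because how reads that match several copies were counted is not given in the sources used here.

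The order of levels within the set was close between some materials and less so between others, given as Spearman correlations over 705 TEs that share libraries, depth and length and are not independent. It was 0.98 between ddm1 HI28 and CI28, 0.98 between ddm1 HS28 and CS28, 0.91 between ddm1 CS7 and CS28, and 0.84 between ddm1 HS7 and CS7. Seedlings were closer to inflorescences (0.82, CT7 and CI28) than to stem cell nuclei (0.62, CT7 and CS7). Between ddm1 CS28 and wt CS28 it was 0.36, and between poliv CS28 and wt CS28 0.84.

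Genes of DNA methylation and heterochromatin were read from a list of 37. In ddm1 CS7 against wt CS7, 1 of 35 tested was called higher (DDM1 itself, as above) and 4 lower, where 13.0% of all features were higher and 4.75% lower. These were the DNA demethylase gene ROS1 (limma, log2 fold change -3.24, adjusted p = 2.09e-13), the histone methyltransferase gene SUVH5 (-1.52), and NRPD1 (-1.50) and NRPE1 (-1.60), the largest subunits of PolIV and PolV. In ddm1 HS7 5 of 36 fell against wt HS7, where 3.13% of all features did, namely the methyltransferase gene CMT3 (-1.19), the heterochromatin histone gene H2A.W6 (-3.66), the linker histone genes H1.1 (-1.56) and H1.2 (-1.08), and NRPD1 (-1.56). In ddm1 CI28 2 of 36 fell against wt CI28, DDM1 (-3.43) and ROS1 (-1.28), where 474 of 18834 features did. In ddm1 CS28 1 of 36 fell against wt CS28, ROS1 (-1.30), where 1173 of 23228 features did. With heat, 3 of 35 rose (MORC6, SGS3 and DCL4) and 6 fell (DDM1, CMT2, SUVH6, H2A.W6, VIM1 and ROS1) in ddm1 HS7 against ddm1 CS7, where 12.1% of all features rose and 23.0% fell. In wt HS7 against wt CS7 4 of 36 rose and 9 fell, where 12.5% of all features rose and 23.7% fell. In both genotypes the counts for the list lay near these shares. In poliv ROS1 fell in CS7 (-3.90), CI28 (-3.24) and CS28 (-2.71), beside SUVH5 in CS7 (-2.02). These were 2 of 36 tested in CS7 and 1 of 36 each in CI28 and CS28. Of all features, 0.324% were lower in CS7, 9 of 17699 in CI28 and 65 of 23012 in CS28.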

How the data were processed

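RNA of tissue or of sorted nuclei was converted to cDNA with Smart-seq (v2 per the labels, while the study's methods give another version for 7-day nuclei) and sequenced. The authors converted reads with bedtools 2.27, clipped and counted them with a nextflow RNA-seq pipeline over TAIR10 genes, with TE genes left out, plus annotated TEs, and divided counts by DESeq2 size factors. The deposited signal is this table of normalized counts for 60886 features, among them 31189 TEs, 29417 nuclear genes and 279 organelle genes, in 128 libraries. The aligner, the counter, strand and the treatment of reads that match several TEs are not given in the sources used here. Groups were taken from sample titles. The tag for cell type in the seedling samples disagrees with their titles, which were followed. The 52 columns of the authors' means and SDs were not used, and 0 per-sample columns were left unmapped.

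Dividing each library by its lowest positive value gave whole numbers, within 0.1, for 100.0% of values, and reads were recovered in this way in 125 libraries. In the other 3, 1 each of wt CN7, ddm1 HS7 and ddm1 HI28, that lowest value was 0.9895, 1.0087 and 1.0032, so close to 1 that reads were not taken as recovered. Totals between 1853992 and 17611137 reads make 1 read worth more in shallow libraries. Since the table holds normalized values, limma 3.58.1 (lmFit, eBayes with trend and robust, R 4.3.3) was fitted to log2(normalized count + 1) of the compared groups only, over features with a mean of at least 5. P-values were adjusted by Benjamini-Hochberg over all features tested, and a call needed an adjusted p under 0.05 and a log2 fold change beyond 1 in size. Fold changes on this scale understate those of low TEs and are no bounds where a group is at 0. Alternatives were other pseudocounts, no filter, rescaling to equal sums of nuclear genes, a replicate block, leaving out single libraries, and edgeR 4.0.16 on recovered reads, which leaves out those 3 libraries and called 664 TEs of the set in ddm1 CS7 against wt CS7. The model code was tested on simulated data with 200 changed features. Tables and figures were made with Python 3.11.15, pandas 2.3.3, numpy 2.4.6 and matplotlib 3.10.9.

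The members and the lists of genes were chosen with earlier results of these data known. TEs named are the 6 highest in ddm1 CT7, for each tested comparison up to 4 called TEs per direction with the largest log2 fold change among those whose libraries do not overlap, the 4 highest in wt CS7, those nearest to each limit of the rule, the longest runs, and the TE whose family the study lists. Other TEs were named after their values were seen.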

Additional observations from a re-analysis of the deposited data

Results flagged for a closer look

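Replicate 1 of wt CS7 lay apart from the other 7 libraries of its group. Its summed normalized count of the set without AT4TE15950 was 3262.0, against 907.2 to 1655 in the others. It held 49 TEs of the set at 20 or more, against 4 to 14 in the others. Such gaps were looked for in 44 groups of values, and chance marks about 1 in 20 groups in this way. The heat effect in 7-day stem cell nuclei differed between ddm1 and wt for 192 TEs of the set, by limma on the difference itself.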

How the results depend on the processing

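Of 142 recomputed counts of called TEs, 111 lay within 1.5 times the reported count. The 3 calls in ddm1 HI28 against ddm1 CI28 became 5 with no filter, 1 after rescaling to equal sums of nuclear genes, 9 with a replicate block and 1 with edgeR, and ranged between 0 and 7 as single libraries were left out. The 1 call in ddm1 HS28 against ddm1 CS28 became 2 with a pseudocount of 5, 7 with no filter, 0 with a replicate block and 0 with edgeR, and ranged between 0 and 71. The 31 calls in wt HS7 against wt CS7 became 67 with no filter, of which 24 were higher and 43 lower, and the 1 call in poliv HS7 against wt HS7 became 2 with edgeR. The 5 calls in poliv CS28 against wt CS28 ranged between 2 and 5 as libraries were left out, and the 6 in poliv HI28 against poliv CI28 between 0 and 22, with 60 when no filter was set. The 192 differences in heat effect became 303 with a pseudocount of 5. With no filter more features enter the test, and the cause of the other shifts was not tested. In ddm1 HS7 against ddm1 CS7, edgeR called 59 higher and 260 lower. In the difference of heat effects, rescaling gave 39 above and 125 below 0. Same-numbered libraries showed no clear pairing, and in no comparison were all correlations of their deviations above 0.1. The comparison of ddm1 CS28 with wt CS28 came nearest to pairing, which remains possible there. Its correlations were 0.08 to 0.29, with 3 of 4 libraries closest to their own number, against a median of -0.09 between different numbers. The replicate block moved no other count by more than 1.5 times. Chosen after seeing the data, leaving out wt CS7 replicate 1 gave 661 calls in ddm1 CS7 against wt CS7, 29 in wt HS7 against wt CS7 and 9 in poliv CS7 against wt CS7. The rule itself took 952 TEs with a minimum of 10 in ddm1 CT7 and 519 with a minimum of 40, and between 690 and 716 as single libraries were left out. TEs with few reads, copies that may share reads, and groups at 0, which give no fold, limit single values.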
